A study of Mus musculus with 12 samples.

Results

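The genes described here encode 10 surface receptors of neutrophils, namely Csf3r, Fpr1, Fpr2, Mcemp1, Trem1, Trem3, Clec4d, Clec4e, Cd177 and Adgrg3. They were picked by gene symbol, with earlier results of these data known. All 10 were found among the 32689 genes of the deposited colon table and all 10 among the 25514 genes of the blood table, and each was followed in every library. Total RNA was sequenced from the colon and whole blood of male C57BL/6 mice modelling ulcerative colitis (UC) with dextran sulfate sodium (DSS), a sugar polymer that injures the gut lining and was drunk with the water. The UC mice, 8 weeks old on arrival, received 1.5% DSS for 7 days and were killed on day 8. The control mice of the same strain and sex received no DSS and were killed in parallel. Each group holds 3 libraries: UC colon and UC blood from mice 1, 2 and 4, and control colon and control blood from mice 7, 8 and 9. The study picked the sequenced mice by their disease activity, and the model is an acute chemical injury in 1 inbred strain.

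Neutrophils read their surroundings through receptors of several families. Granulocyte colony-stimulating factor acts through the receptor encoded by Csf3r and drives the making and release of neutrophils, while formyl peptides from bacteria and mitochondria steer the cells through Fpr1 and Fpr2. Trem1 and Trem3 are immunoglobulin-like receptors that signal through the adaptor Tyrobp (DAP12), and the C-type lectins Clec4d and Clec4e (Mincle) bind glycolipids of mycobacteria and fungi and signal through Fcer1g. Cd177 is a lipid-anchored surface protein of neutrophils that can bind Pecam1 on the vessel wall. Adgrg3 (GPR97) is an adhesion G protein-coupled receptor of granulocytes, and Mcemp1 is a small membrane protein first described in mast cells. In inflamed gut, neutrophils leave the blood and gather in the mucosa, so the RNA of these genes can be read in both tissues.

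The labels needed a check before any comparison. For every sample one label field says colon where another says blood, and the tissue characteristic was followed here. Summed normalized counts of 8 colon epithelium genes were between 842431 and 2518420 in the libraries grouped as colon and between 250.4 and 502.7 in those grouped as blood, and 5 red cell genes were at 525 to 4216 in the colon and at 3986971 to 8091558 in the blood. The tables of the tissues were normalized separately, so these sums are set side by side only as a check, and the tissue grouping matches the RNA in all 12 libraries. The disease labels did not match the inflammatory genes. In the colon, S100a8, a neutrophil calcium-binding protein, reached 5370 normalized counts for mouse 1, 33.1 for mouse 2 and 22.3 for mouse 4, all labelled UC, against 1888 for mouse 7, 75.6 for mouse 8 and 13337 for mouse 9, all labelled control. Normalized counts of the acute phase gene Saa3 in the colon were 4701, 0 and 0 for mice 1, 2 and 4. They were 3256, 0 and 26328 for mice 7, 8 and 9. In each tissue the 3 highest values of all 10 receptor genes were those of mice 1, 7 and 9. The deposited normalized tables list the libraries of a tissue in the order of mice 1, 7, 9, 2, 4 and 8. The files do not settle whether the disease labels name the right mice. Groups are therefore named as labelled UC and labelled control throughout, and a difference between them, or its absence, cannot be read as an effect of DSS or as the lack of one. Colon libraries held 69181049 to 103662306 counts in total, blood libraries 80867247 to 142536804.

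On the GRCm38 genome 6 of the 10 genes lie in neighbouring pairs. Fpr1 (chromosome 17, 17876471 to 17883940, minus strand) and Fpr2 (17887824 to 17893952, plus strand) are 3883 bases apart, and farther along the same chromosome Trem1 (48232768 to 48246924) and Trem3 (48247777 to 48258841), both on the plus strand, are 852 bases apart. On chromosome 6, Clec4d (123262111 to 123275265, plus strand) and Clec4e (123281789 to 123289870, minus strand) are 6523 bases apart. Csf3r lies on chromosome 4 (126024550 to 126044440, plus strand), Cd177 on chromosome 7 (24743983 to 24760311, minus strand), and Mcemp1 (3665754 to 3669259) and Adgrg3 (95017692 to 95045250) far apart on the plus strand of chromosome 8. All are protein coding. Of the 50-base stretches in the transcripts of Fpr2, 31.5% also occur in transcripts of other genes, most of them in Gm5966, and the same holds for 10.7% in Csf3r and 5.51% in Cd177, so part of the counts of Fpr2 in particular may belong to a related gene. For Mcemp1, Trem1, Trem3, Clec4d and Clec4e no such stretch was found. Fpr2 also shares 48 exon bases with Fpr3 on the same strand, although Fpr3 held at most 1 count in any library.

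Trem1 and Clec4e were called higher in blood than in colon below, though their differences were not the largest. Their promoters hold several of the motif matches listed below. Cd177 and Adgrg3 had the smallest differences between the tissues, although Adgrg3 was also called higher in blood. The promoters of these 4 members are shown so that the pairs can be read side by side. Each is the 250 bases upstream of the RefSeq start on GRCm38.p6, written 5′ to 3′ along the gene's strand, with capitals for the ETS core bound by PU.1 (GAGGAA or its reverse complement) and for a C/EBP motif (TTGCNNAA on either strand). The windows are chr17:48232489-48232738 (plus strand), chr6:123289872-123290121 (minus), chr7:24760312-24760561 (minus) and chr8:95017442-95017691 (plus).
Trem1: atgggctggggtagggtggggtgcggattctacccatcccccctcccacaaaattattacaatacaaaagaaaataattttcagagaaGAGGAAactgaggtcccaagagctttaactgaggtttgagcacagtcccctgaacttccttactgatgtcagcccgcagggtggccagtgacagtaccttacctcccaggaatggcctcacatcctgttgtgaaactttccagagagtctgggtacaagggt
Clec4e: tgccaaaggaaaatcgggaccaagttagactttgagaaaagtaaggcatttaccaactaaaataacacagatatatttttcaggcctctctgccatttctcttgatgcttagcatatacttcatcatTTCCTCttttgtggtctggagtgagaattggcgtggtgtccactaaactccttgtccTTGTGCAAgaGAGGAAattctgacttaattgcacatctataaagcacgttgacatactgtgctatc
Cd177: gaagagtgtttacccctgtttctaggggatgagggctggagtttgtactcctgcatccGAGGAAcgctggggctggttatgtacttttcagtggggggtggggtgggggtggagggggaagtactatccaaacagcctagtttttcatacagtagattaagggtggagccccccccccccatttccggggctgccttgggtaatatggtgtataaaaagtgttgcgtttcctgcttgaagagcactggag
Adgrg3: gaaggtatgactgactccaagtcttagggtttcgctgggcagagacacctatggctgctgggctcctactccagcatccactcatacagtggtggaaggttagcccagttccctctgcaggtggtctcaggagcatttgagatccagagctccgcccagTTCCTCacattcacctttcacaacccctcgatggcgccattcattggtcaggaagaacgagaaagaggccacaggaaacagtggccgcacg

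A RefSeq promoter was available for 9 of the 10 members. The ETS core was present in 7 of these 9 and in 23.3% of the 32851 promoters of the same length. It was found in Csf3r, Fpr2, Trem1, Clec4d, Clec4e, Cd177 and Adgrg3, with a pair of matches in Clec4e. The C/EBP motif was present in 1 of 9, Clec4e, against 9.56% of all promoters, a STAT motif (TTCNNNGAA) in 2 of 9 (Fpr2 and Trem1) against 7.02%, a RUNX motif (TGTGGT) in 2 of 9 (Mcemp1 and Clec4e) against 14.0%, and an AP-1 motif (TGANTCA) in 0 of 9 against 6.75%. In Clec4e the C/EBP match at bases -66 to -59 lies beside the ETS match at -56 to -51, counted back from the start. In Trem1 the STAT match at -171 to -163 directly precedes the ETS match at -162 to -157. These are matches of letters in a window, and binding was not measured.

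In the colon, 8 of the 10 receptor genes were at 39.1 normalized counts or fewer in mice 2, 4 and 8 and higher in mice 1, 7 and 9, while Cd177 and Adgrg3 were well counted in each library. Values are the authors' normalized counts, which are comparable between libraries of a tissue. The cytokine receptor gene Csf3r was at 719.8, 34.0 and 36.3 for mice 1, 2 and 4, labelled UC, against 559, 39.1 and 1957 for mice 7, 8 and 9, labelled control, an order of mice kept in the lists of values below. Its highest library was mouse 9 and its lowest mouse 2, and the labelled groups overlapped.

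Among the chemotactic receptors, Fpr1 was at 209, 0 and 0 in the colon libraries labelled UC against 101, 7.56 and 580.4 in those labelled control. Fpr2 followed at 255, 22.6 and 12.4 against 243, 13.9 and 1004. Both were highest in mouse 9, then in mice 1 and 7, with each labelled group holding high and low libraries. A count of 0 allows up to 3 counts, 0.0289 to 0.0434 counts per 1000000 of the library's total, and so does not show absence.

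The immunoglobulin-like receptor gene Trem1 was at 378, 7.84 and 11.5 against 162, 0 and 1244 in the colon. Its neighbour Trem3 was the lowest member, at 8.52, 0 and 0 against 26.6, 0 and 88.2, and was the only member that did not pass the filter on low counts for the colon comparison. The lectin genes behaved alike: Clec4d was at 388, 17.4 and 5.77 against 245, 21.4 and 971, and Clec4e was at 341, 0 and 20.6 against 343, 0 and 1575. In these 4 genes mouse 9 held the highest value and mice 2, 4 and 8 the lower ones. Mcemp1 was at 134, 22.6 and 14.8 against 187, 17.6 and 476, with the same mice high.

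Cd177 and Adgrg3 differed in this from the rest. Cd177 was at 6555, 3666 and 3355 against 6327, 3584 and 7692 in the colon. Its highest library was 2.29-fold above its lowest, where Csf3r spanned 57.6-fold and Clec4d 168-fold. Adgrg3 was at 323, 320.5 and 179.8 against 519.7, 173 and 581, a span of 3.37-fold. Neither gene fell near 0 in any colon library.

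**Figure D1:**
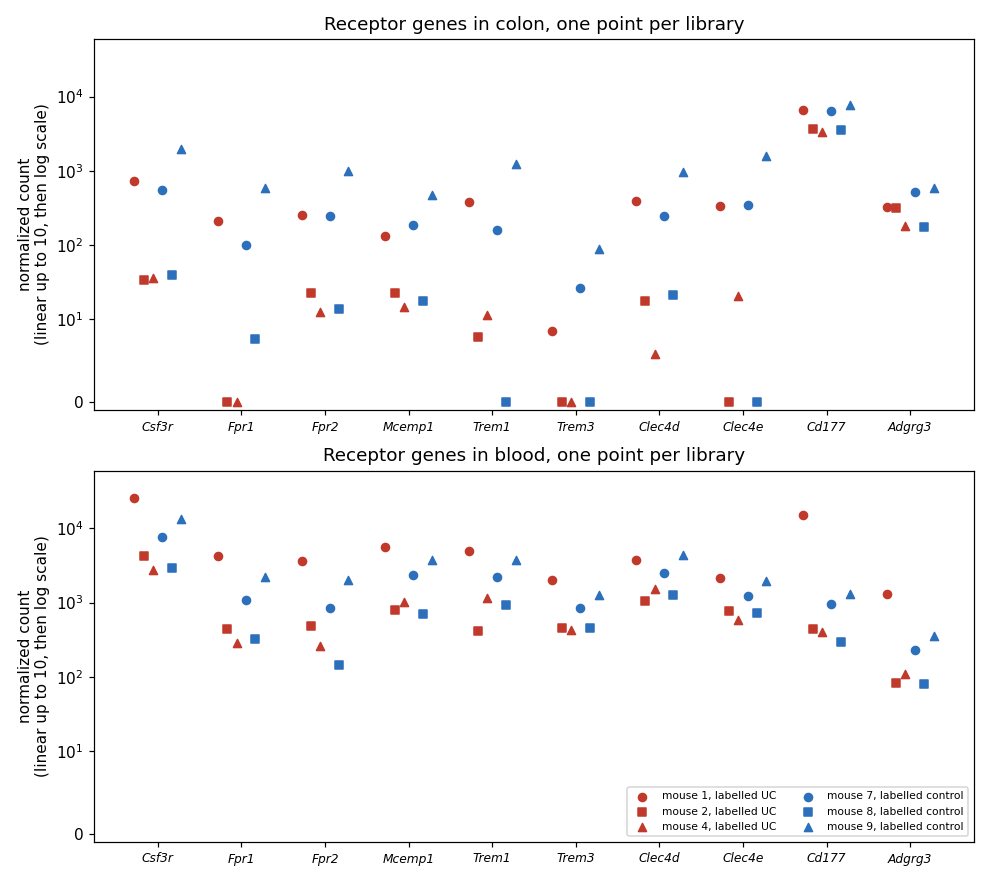
Normalized counts of the 10 receptor genes in the colon (top) and blood (bottom), with 1 point per library, red for libraries labelled UC and blue for those labelled control, on an axis that is linear up to 10 and logarithmic above. In the colon 8 genes are at 39.1 or less in mice 2, 4 and 8, while Cd177 stays between 3355 and 7692. Red and blue points are mixed in every gene.

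In the blood, each of the 10 genes was expressed in all 6 libraries. Csf3r was at 25466, 4282 and 2772 normalized counts for mice 1, 2 and 4 against 7737, 2927 and 13474 for mice 7, 8 and 9. Fpr1 was at 4251, 436 and 283 against 1076, 322 and 2201, and Fpr2 at 3673, 480.1 and 264 against 836, 144 and 1995. Mouse 1 was highest for these 3 genes, followed by mice 9 and 7, and the labelled groups overlapped.

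Trem1 was at 4994, 415 and 1139 in the blood libraries labelled UC and at 2242, 939 and 3804 in those labelled control. Trem3, barely counted in the colon, was at 2017, 459 and 427 against 841, 448 and 1278. Clec4d was at 3744, 1057 and 1511 against 2521, 1266 and 4432 and was the only member with its highest blood value in mouse 9. These genes spanned less between libraries in the blood than in the colon, Clec4d 4.19-fold and Trem3 4.72-fold. Clec4e was at 2152, 778 and 579 against 1229, 731 and 1928, and Mcemp1 at 5547, 801 and 1006 against 2325, 696 and 3758.

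Cd177 again stood apart, now by its spread. It was at 15378, 445 and 407 against 962, 299 and 1316, so that mouse 1 was more than 10 times the next library and the span was 51.5-fold, the widest of the 10 in blood. Adgrg3 was at 1294, 82.8 and 110.5 against 233, 79.3 and 359, again with mouse 1 far above the others.

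Which receptor genes were the more abundant was read from counts per 1000000 (CPM, TMM-scaled) per kb of exon, the only scale used to set genes against each other. In the blood the median over 6 libraries was 30.5 CPM per kb for Csf3r (range 14.0 to 129), 23.3 for Clec4d, 20.7 for Mcemp1, 11.98 for Trem3, 10.5 for Fpr1, 10.4 for Trem1, 9.30 for Fpr2, 4.55 for Cd177, 3.70 for Clec4e and 0.461 for Adgrg3. Most neighbours in that order did not differ beyond the spread of libraries. Mcemp1 was above Trem3 in 6 of 6 libraries and Clec4e above Adgrg3 in 6 of 6, while every other neighbouring pair changed order in at least 1 library. The lectins of the Clec4d and Clec4e pair thus sat far apart, and Clec4d per kb was 4.21 to 8.10 times Clec4e within a library. Trem1 and Trem3 lay close, with Trem1 at 0.3002 to 0.988 of Trem3.

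In the colon the order was another. Cd177 led with a median of 9.88 CPM per kb (6.44 to 15.0) and was above the next gene in 6 of 6 libraries. The medians of the following genes were 0.582 for Fpr2, 0.475 for Clec4d, 0.472 for Csf3r, 0.289 for Mcemp1, 0.256 for Adgrg3, 0.234 for Fpr1, 0.202 for Clec4e, 0.165 for Trem1 and 0.0238 for Trem3. None of these genes was above the next in each library. Trem1 was above Trem3 in 5 of 6 libraries, and both were at 0 counts in mouse 8. Of the summed CPM per kb of the 10 genes, the share of Cd177 was 43.0% to 94.6% in colon libraries, against 2.96% to 18.7% in blood libraries.

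The first comparison asked whether the receptor genes differ between libraries labelled UC and libraries labelled control in the colon. No member did. Of the 9 members tested with edgeR's quasi-likelihood test, 0 were significantly differentially expressed (SDE, adjusted p of at most 0.05 and absolute log2FC over 1), where 0.0045% of the 22238 genes tested were. At an unadjusted p under 0.05 there were 0 of 9 members, against 1.41% of all genes, and 0 also with DESeq2 and limma-voom. All 9 had negative log2FC, from -2.40 for Clec4e (SE 2.31) to -0.38 for Cd177 (SE 0.37), with a median of -1.72 against -0.01 over all genes and adjusted p = 0.9999 throughout. For Csf3r the log2FC was -1.69 (SE 1.60), from means of 263 ± 395 normalized counts (SD, n = 3) in the libraries labelled UC and 852 ± 992 in those labelled control. Both groups overlapped in all 9, where 5.41% of all genes had groups that did not overlap. The shared sign rests on mouse 9, since without it 3 members were positive and 6 negative. Without mouse 1 all 10 then tested were negative, with 6 at an unadjusted p under 0.05 by edgeR. In that fit 0 genes in all were called, and the share of all genes at that unadjusted level was not taken. The colon libraries labelled UC were also the deeper ones, and depth and label cannot be told apart there. In a bulk sample, neutrophil number, RNA per neutrophil and RNA from other cells cannot be told apart, and none was tested.

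In the blood the same comparison gave 0 of 10 SDE members, against 0% of 16759 genes, and 0 of 10 at an unadjusted p under 0.05, against 1.44%. DESeq2, with no adjusted p for Cd177, and limma-voom also called 0. The log2FC was positive for 7 members and negative for 3, from -0.38 for Clec4d (SE 0.56) to 2.65 for Cd177 (SE 1.35), with a median of 0.30 and an adjusted p of 0.9998 by edgeR for each. Groups overlapped in all 10, where 6.5% of all genes did not overlap. For Cd177 the means were 5410.0 ± 8632 normalized counts in the libraries labelled UC and 859 ± 516 in those labelled control (SD, n = 3), and the log2FC was -1.001 without mouse 1. Without mouse 1 all 10 members were negative, with 4 at an unadjusted p under 0.05 by edgeR, and without mouse 9 all 10 were positive. In the fit without mouse 1, 0 members and 3 genes in all were called, and the share of all genes at that unadjusted level was not taken.

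Whether the label effect differed between tissues was tested as an interaction. The difference, colon effect minus blood effect, was negative for all 10 members, from -1.22 for Clec4d (SE 1.91) to -3.95 for Trem3 (SE 1.82), and 0 of 10 passed an adjusted p of 0.05 in edgeR, where 0.0043% of 23258 genes did. At an unadjusted p under 0.05 there were 0 of 10 against 3.41% of all genes, and with the mouse number as replicate block 3 of 10, with adjusted p = 1 for all. The 3.41% belongs to the fit without the block, and the share of all genes was not taken with it.

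**Figure D2:**
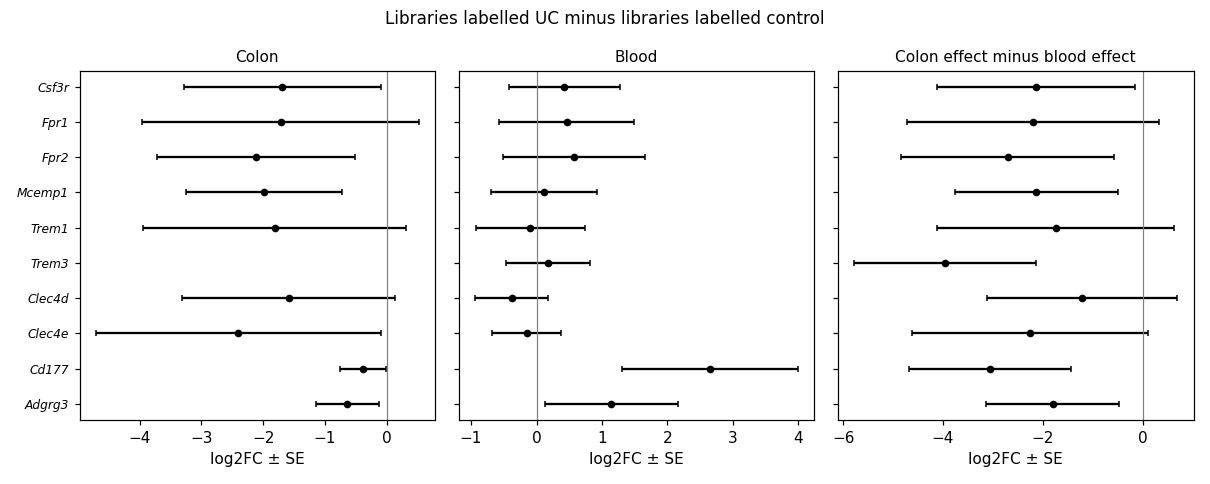
Fitted log2FC of libraries labelled UC minus libraries labelled control, with SE bars, for colon, blood and the difference between them (n = 3 libraries per labelled group). Colon points lie left of 0, blood points lie on both sides with Cd177 farthest right at 2.65, and no point passed the adjusted threshold. Trem3 has no colon value because it failed the filter on low counts.

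Each mouse gave both tissues, and the next comparison asked in which tissue the receptor genes took the larger share of sequenced RNA. Ribosomal RNA was depleted in both tissues and globin RNA in blood alone. The extraction kits also differed, so tissue and preparation cannot be told apart. Of the 10 members, 9 were called higher in blood than in colon (adjusted p of at most 0.05 and absolute log2FC over 1, edgeR over 12 libraries), where 20.8% of 23258 genes were called higher in blood and 37.7% higher in colon. The median log2FC of the members was 4.97 and that of all genes -0.46. Every blood library lay above every colon library in 7 of 10 members, against 19.2% of all genes, and every colon library above every blood library in 0, against 34.3%. The 3 exceptions were Fpr2, Cd177 and Adgrg3. The fit above did not pair the libraries by mouse. Under a replicate block for the mouse, 8 members were called higher in blood, as were 4634 of all genes tested.

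Trem3 had the largest difference, a log2FC of 8.13 (SE 1.08, adjusted p = 5.22e-05), going from 0 to 0.489 CPM in the colon to 7.76 to 36.9 CPM in the blood. Mcemp1 followed at 6.09 (SE 1.00, adjusted p = 0.00024) and Csf3r at 6.02 (SE 1.215, adjusted p = 0.00102), with Csf3r at 0.185 to 10.8 CPM in the colon and 50.4 to 466 CPM in the blood. The formyl peptide receptor Fpr1 was at 5.19 (SE 1.48), Clec4d at 5.05 (SE 1.13) and Trem1 at 4.90 (SE 1.38). Below these lay Fpr2 at 4.30 (SE 1.20) and Clec4e at 3.86 (SE 1.303, adjusted p = 0.0203). Adgrg3 passed the test narrowly, at 1.68 (SE 0.68, adjusted p = 0.0448), and not with the mouse as a replicate block (1.08, adjusted p = 0.0873). Cd177 did not pass, at 0.46 (SE 0.79, adjusted p = 0.618), and its sign turned with the block (-0.68, adjusted p = 0.346). Without mouse 1, Cd177 was called lower in blood, at -1.20 (adjusted p = 0.0188), and Adgrg3 was at 0.56 (adjusted p = 0.321).

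The size of these values depends on the scaling between tissues. The TMM factors of blood libraries were 0.347 to 0.721 and those of colon libraries 1.91 to 2.32, and with library sizes alone the median of all genes moved from -0.46 to -2.57. Calls higher in blood were 35.6% of all calls with TMM and 8.94% with library sizes alone. With library sizes alone 6 members were called higher in blood, as were 1757 of all genes tested. There Fpr2 and Clec4e lost the call (adjusted p = 0.0706 and 0.184), Adgrg3 was at -0.46 and Cd177 at -1.69 (adjusted p = 0.0564). Only Trem3 had every blood library above every colon library on that scale. Such a change of scaling shifts all genes by nearly the same amount, so values relative to their median could hardly move. They are therefore no check on the scaling. Csf3r stood 6.47 above the median of all genes with TMM and 6.45 with library sizes alone, Adgrg3 2.14 and 2.10, and Cd177 0.92 and 0.87. With the mouse as a replicate block these values were 7.34 for Csf3r, 1.59 for Adgrg3 and -0.17 for Cd177.

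**Figure D3:**
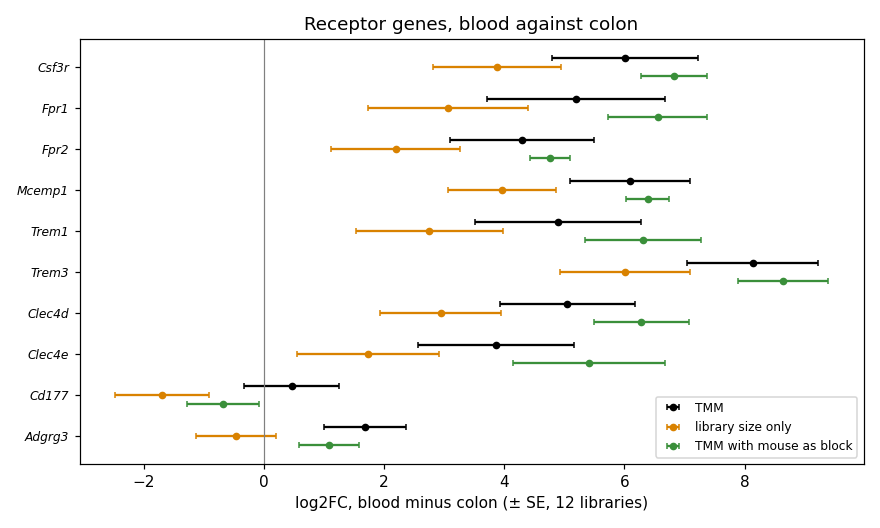
Fitted log2FC of blood minus colon with SE bars over 12 libraries for the 10 genes, with TMM scaling (black), library sizes alone (orange) and TMM with the mouse as a block (green). For 8 genes all 3 estimates lie right of 0, while Cd177 runs from -1.69 to 0.46 and Adgrg3 from -0.46 to 1.68.

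Within each mouse, 8 members were higher in blood than in colon in 6 of 6 mice, also with library sizes alone. The share of all genes higher in blood in 6 of 6 mice was not taken on either scale, so this count is a description only. On the TMM scale the blood to colon ratio of Csf3r was 117 in mouse 1, 408 in mouse 2, 255 in mouse 4, 45.4 in mouse 7, 239 in mouse 8 and 22.5 in mouse 9. The smallest ratios of Csf3r, in mice 9 and 7, came with high colon values. Mcemp1 ranged from 25.9 in mouse 9 to 226 in mouse 4, Clec4d from 14.9 in mouse 9 to 872 in mouse 4, and Fpr2 from 6.51 in mouse 9 to 71.2 in mouse 4. Where the colon count was 0 the ratio is a lower bound against a floor of 3 counts per library, and blood was at least 540-fold higher for Fpr1 in mouse 2, at least 791-fold for Trem1 in mouse 8 and at least 963-fold for Clec4e in mouse 2. Cd177 was higher in blood in 1 of 6 mice, with a ratio of 7.74 in mouse 1 and of 0.266 to 0.560 in the others. Adgrg3 was higher in blood in 5 of 6 mice, at 13.2 in mouse 1 and 0.835 to 2.05 in the others, but in 1 of 6 with library sizes alone.

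**Figure D4:**
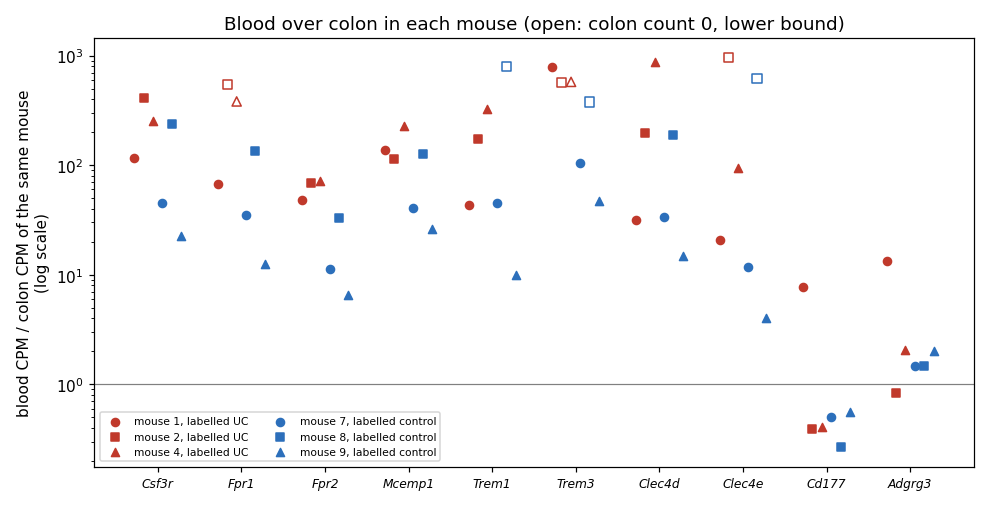
Ratio of TMM-scaled CPM in blood to that in colon of the same mouse, on a log axis, with open symbols for lower bounds where the colon count was 0. For 8 genes all 6 mice lie above 1, down to 4.01 for Clec4e in mouse 9, whereas 5 of 6 mice lie below 1 for Cd177.

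Ratios between members within a library do not depend on the scaling between libraries. In the colon Cd177 per kb was 11.6, 137 and 118 times Csf3r for mice 1, 2 and 4 against 14.4, 117 and 4.99 times for mice 7, 8 and 9. In the blood it was 0.767, 0.132 and 0.187 times Csf3r against 0.158, 0.130 and 0.124 times. The tissues did not overlap, and within the colon the ratio was lowest in mouse 9, where Csf3r was highest. Adgrg3 showed the same order at lower level, 0.155 to 4.93 times Csf3r in colon and 0.0101 to 0.0266 times in blood. Mcemp1 stayed near Csf3r in both tissues, at 0.448 to 1.61 times in colon and 0.452 to 0.877 times in blood. Fpr1 was 0 to 0.804 times Fpr2 in the colon and 0.890 to 2.19 times in the blood, with the limit on Fpr2 counts given above.

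**Figure D5:**
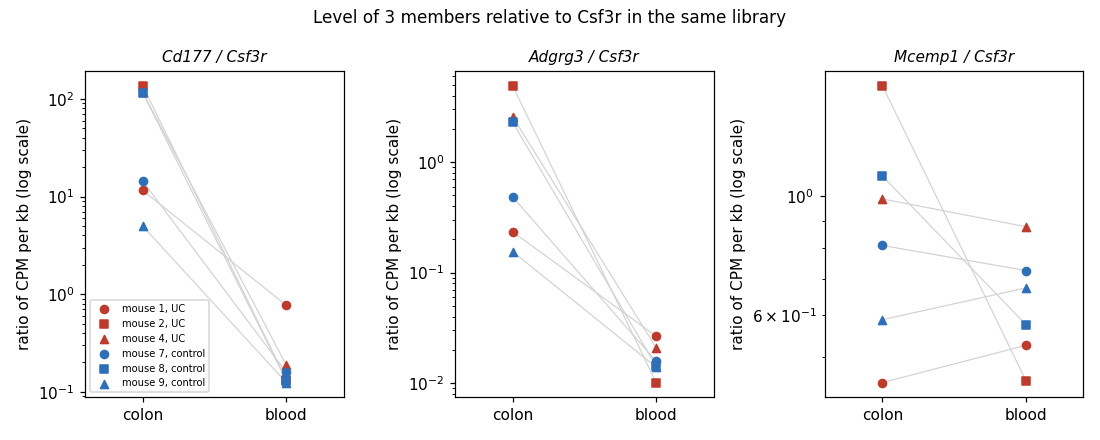
Level per kb of Cd177, Adgrg3 and Mcemp1 divided by that of Csf3r in the same library, on log axes, with a line joining the colon and blood of each mouse (red, labelled UC; blue, labelled control). Cd177 and Adgrg3 fall from colon to blood in 6 of 6 mice, from 4.99 or more to 0.767 or less for Cd177, while Mcemp1 overlaps between the tissues.

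Other genes of the same pathways were read from 3 lists. Of 24 other surface receptors of neutrophils, 23 were tested between tissues, 20 were called higher in blood and 1 lower, with a median log2FC of 3.97. The largest rises were those of the platelet receptor Treml1 (12.40, SE 0.43), of Treml2 (7.59, SE 0.59) and of the chemokine receptor Cxcr1 (7.32, SE 1.13), and the 1 fall was the complement receptor C3ar1 (-1.46, SE 0.37). Summed platelet markers were also higher in blood, with 5 of 5 genes called. Of 24 adaptors and signalling genes 18 were called higher in blood and 0 lower, with a median of 2.52, led by the kinase Fgr (5.32, SE 0.71), Card9 (5.17, SE 0.72), which relays lectin signals, and the GTPase Rac2 (4.49, SE 0.56). The adaptors of the members themselves, named here after their values were seen, were Tyrobp at 3.83 (SE 0.52) and Fcer1g at 2.92 (SE 0.52), both called.

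The 16 ligands and binding partners split, with 5 called higher in blood and 4 lower and a median of -0.05. Higher in blood were Camp (8.02, SE 1.86), whose peptide acts on Fpr2, Hebp1 (6.48, SE 0.27), source of a formyl peptide receptor ligand, and the integrin Itgb2 (4.55, SE 0.61). Camp had counts of 600 in blood mouse 1, 27 in mouse 4, 91, 43 and 55 in mice 7, 8 and 9, and 0 in mouse 2. Lower in blood were Saa1 (-14.66, SE 1.13) and Saa2 (-7.80, SE 1.07), serum amyloid proteins that act on Fpr2, and Csf3, the ligand of Csf3r. Csf3 held 0 counts in all 6 blood libraries, and its colon counts were 133, 3 and 0 for mice 1, 2 and 4 against 68, 0 and 1335 for mice 7, 8 and 9. Csf3 was highest in the colon of mouse 9, as were all 10 members and S100a8, so this is not particular to Csf3 and Csf3r. Between the labelled groups 0 genes of the 3 lists were called in either tissue, and at an unadjusted p under 0.05 there was 1 gene in all, Anxa1 in the colon (-0.64, SE 0.24, adjusted p = 0.9999 by edgeR).

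Marker genes of other cells were read beside these values, and their part in the result was not tested. Of 12 neutrophil markers 11 were tested between tissues, 8 were called higher in blood and 1 lower, with Elane at 0 in all colon libraries. The 1 lower gene was Ly6g, widely used to stain neutrophils, with 21494, 7350 and 16355 normalized counts for colon mice 1, 2 and 4 against 20824, 17455 and 25479 for mice 7, 8 and 9. Ly6g, like Cd177, was thus abundant in colon libraries where S100a8 was at 75.6 or less. In blood, whose table was normalized separately, Ly6g had normalized counts between 72.0 and 2680, and its log2FC of blood minus colon was -2.90 (SE 0.92, adjusted p = 0.0153). Summed neutrophil markers ran from 7616 to 38264 in the colon libraries labelled UC and 17919 to 77511 in those labelled control. In the colon of mice 2, 4 and 8 nearly all of the sum was Ly6g, at 7350 of 7616, 16355 of 16732 and 17455 of 17919. The colon sums therefore do not give the spread of the other neutrophil markers. The blood libraries held 43838 to 456688 where labelled UC and 36072 to 335928 where labelled control. Monocyte and macrophage markers were at 10224 to 21627 and 9677 to 32356 in the colon, and at 9306 to 13465 and 6909 to 13081 in the blood. Of 10 such markers 5 were called higher in blood and 4 lower. Mast cell markers, read because of Mcemp1, were at 2975 to 6146 in the colon and 105 to 824 in the blood, where Mcpt1, Mcpt4 and Tpsb2 were at 0 in all libraries, but the sums come from separately normalized tables and the genes went both ways. Of the 8 mast cell markers 2 were called higher in blood, Ms4a2 (5.44) and Fcer1a (4.22), and 4 lower. Eosinophil markers were at 34.8 to 2952 in the colon and 501 to 1385 in the blood. All 5 B cell and all 5 T cell markers were called higher in blood. All 8 epithelium and all 5 muscle and stroma markers were called lower in blood, with Krt20 at 0 in all blood libraries.

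The genes whose profile over the libraries was most like the mean profile of the receptor genes were found by the root mean square difference of centred log2 CPM. In the colon, over 6 libraries and 15818 genes, these were Duoxa2 (0.315), which matures a peroxide-making oxidase, Clca3b (0.342), Ddah1 (0.351), the Fc receptor Fcgr4 (0.383) and Trim30b (0.401). Among the members Csf3r (0.187) and Fpr2 (0.3004) were nearest to the mean, while Cd177 (1.74), Adgrg3 (1.69) and Clec4e (1.78) were far from it. The mean is made of the members tested, so distances of members and of other genes are not on equal terms. Trem3, not tested in the colon, has no part in the colon mean. In the blood, over 6 libraries and 11094 genes, they were Bst1 (0.0473), Ugt1a6a (0.112), Anxa1 (0.132), the glycogen phosphorylase Pygl (0.154) and Rbm47 (0.178). Csf3r (0.182) and Mcemp1 (0.184) were the nearest members, and Cd177 (0.887) the farthest. Over all 12 libraries centred within tissue, among 10569 genes, they were Slc15a3 (0.337), the cytokine signalling inhibitor Socs3 (0.400), B430306N03Rik (0.420), the protease Adam8 (0.420) and Cd300lf (0.427).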

How the data were processed

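The 12 libraries were total RNA, depleted by the authors of ribosomal RNA and, in blood, of globin RNA. Per the study's methods the authors mapped reads with STAR to GRCm38 and quantified Ensembl genes with StringTie 1.3.4c (a version also in the submitters' processing notes), with no strand set. The deposited counts are whole numbers that the authors derived from transcript coverage, so reads shared by related or overlapping genes can be split between them. The deposited normalized tables are a signal scale, counts divided by the authors' factor per library, made separately per tissue. They were compared only within a tissue, except that sums of marker genes and Ly6g are set side by side without a test. Genes outside these tables took 8.63% to 18.8% of a colon library's counts and 39.1% to 67.9% of a blood library's. Depth is the total count per library, and intervals and floors cover counting error only.

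Tests on the counts used edgeR 4.0.16 in R 4.3.3 (TMM, filterByExpr, glmQLFit, glmQLFTest, two-sided, Benjamini-Hochberg over all genes tested). SE is log2FC over the root of the F statistic. The label was tested within each tissue, and the interaction and blood against colon over all 12 libraries. The study also compared UC with control in a simple design, but whether it grouped the mice as labelled here is not settled. Nothing in the labels beyond the mouse number describes replicates, which were taken as separate mice. Alternatives were RLE, library sizes alone, leaving out genes outside the normalized tables, other filters and thresholds, DESeq2 1.42.0, limma-voom 3.58.1, a fit of all libraries, the mouse as replicate block, and each mouse left out. The study drew both tissues from the same mice, which is where the pairing comes from. Deviations from group means of same-numbered libraries correlated across genes at r = -0.0151 to 0.141, over 0.1 in 1 of 6 pairs. Levels are TMM-scaled CPM per kb of the union of exons in GENCODE vM21, centred profiles use a prior count of 2, and promoters come from RefSeq.

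The members and the lists were chosen with earlier results of these data known. Named were all members, of each pathway list the 3 largest rises and falls among called genes with a mean of at least 100 normalized counts in the higher tissue, and the 5 genes most alike. The fits were tested on simulated counts with 200 genes changed 4-fold. They recovered 199 in colon, 199 in blood, 181 in the interaction and 200 between tissues, with 14, 15, 9 and 7 false calls. Simulated libraries had a small fixed spread and, apart from depth and the changed genes, no difference between tissues. They check the code and not the error rates in these data.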

Additional observations from a re-analysis of the deposited data

How the results depend on the processing

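Between the labelled groups, 0 members were called in either tissue or in the interaction under the alternatives run, with adjusted p from 0.565 to 1, which says nothing about stability where almost no gene is called. Over all genes, edgeR called 1 in the colon, 0 in the blood and 1 in the interaction, and DESeq2 called 6, 6 and 19. DESeq2 gave no adjusted p for Cd177 in the fits that held blood libraries. With each mouse left out in turn, the colon log2FC ran from -10.85 to 0.32 for Fpr1, from -5.57 to 0.67 for Trem1 and from -5.13 to 0.0031 for Clec4d. In the blood it ran from -1.18 to 1.02 for Csf3r, -1.73 to 1.24 for Fpr1, -1.41 to 1.58 for Fpr2, -1.31 to 0.70 for Mcemp1, -1.56 to 0.45 for Trem1, -0.94 to 0.58 for Trem3, -1.08 to 0.15 for Clec4d, -0.93 to 0.25 for Clec4e, -1.001 to 3.20 for Cd177 and -1.20 to 1.66 for Adgrg3. In the interaction it ran from -4.00 to 0.22 for Trem1, -3.47 to 0.26 for Cd177 and -2.43 to 0.43 for Adgrg3. With library sizes alone the blood log2FC was -0.25 for Csf3r, -0.28 for Fpr1, -0.21 for Fpr2, -0.56 for Mcemp1 and -0.42 for Trem3, where the median of all genes moved to -0.27, and with limma-voom it was -0.19 for Fpr1, -0.14 for Mcemp1 and -0.10 for Trem3. The cause was not tested.

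Blood against colon, 9 members were called with TMM, and between 6 and 9 under the other alternatives, except 5 in the mice labelled control alone, a fit with fewer samples. The 9 called without mouse 1 include Cd177, as lower in blood (-1.20, adjusted p = 0.0188). Trem3, Mcemp1, Csf3r and Clec4d were called in each of these. Adgrg3 lost its call with RLE, library sizes alone, genes outside the normalized tables left out, no filter, limma-voom, an adjusted p of 0.01, the replicate block and in either labelled group alone, and when mouse 1, 4, 7, 8 or 9 was left out. Clec4e lost its call without mouse 4 or mouse 7, with library sizes alone, at an adjusted p of 0.01 and in the mice labelled control, Fpr2 with library sizes alone and in the mice labelled control, Trem1 in the mice labelled control and Fpr1 in the mice labelled UC. The log2FC of Cd177 was -1.69 with library sizes alone, -0.54 with limma-voom, -0.68 with the mouse as replicate block and -1.04 in the mice labelled control, and ran from -1.20 to 0.66 with each mouse left out. That of Adgrg3 was -0.46 with library sizes alone. With the paired fit 8 members were called, the replicate block ending the call of Adgrg3 (1.08, adjusted p = 0.0873) and no other. The median colon level of Cd177 was 20.6 CPM per kb with library sizes alone and 17.0 with genes outside the normalized tables left out. That of Adgrg3 was 0.583 with its longest transcript as length, 0.550 with library sizes alone and 0.443 with genes outside the tables left out. At these depths a colon count of 0 for Fpr1, Trem1, Trem3 or Clec4e allows up to 3 counts.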
